A study of Mus musculus with 25 samples.

Results

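The Tim4- macrophages of mouse white adipose tissue were compared between mice on a high fat diet and mice on a control diet. Of the 25 libraries in the series, 8 belonged to this comparison. They came from C57BL6 mice, and each held 200 cells sorted straight into lysis buffer. The high fat diet (HFD) is labelled as 45% fat and the control diet (CD) as 10% fat. Population 3 (pop3) was sorted as Tim4- CD11c- cells with high MHC class II, and population 4 (pop4) as Tim4- CD11c+ MHC class II positive cells. Each population had 2 HFD libraries, numbered 2 and 3, and 2 CD libraries, numbered 7 and 8, so there were 4 libraries on each diet. The remaining 17 libraries were Tim4+ adipose macrophages with low (population 1) or high (population 2) MHC class II, and blood monocytes, on the same 2 diets. Values are given below as CPM, gene counts scaled to a common library size, and a log2 difference is HFD minus CD.

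The labels do not give the length of the diet, the number of mice behind a library, or whether libraries with the same number shared a mouse. All CD libraries from adipose tissue carried the title series CD-CD, and all HFD libraries the title series HFD, so the diet and the title series cannot be told apart. The digestion buffer held flavopiridol, an inhibitor of transcription, for both diets.

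Tim4, encoded by Timd4, is a phosphatidylserine receptor carried by long-lived resident macrophages of several tissues. Tim4- macrophages of adipose tissue are in large part replenished from blood monocytes, and CD11c+ macrophages are the class best known for gathering in obese fat, where they take up lipid from dying adipocytes. Resident-type macrophages are known for scavenger and endocytic receptors such as Lyve1, Stab1 and the Cd209 lectins, and for the bridging ligand Gas6, which links phosphatidylserine on dying cells to receptors of the TAM family.

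The sorted identities were visible in the transcripts. Timd4 ranged from 0 to 11.6 CPM over the 8 Tim4- libraries, with the 2 highest values in the CD 8 libraries of pop3 and pop4. In Tim4+ libraries it ranged from 87.2 to 612 CPM. Itgax, which encodes CD11c, had 179 and 193 CPM in the HFD libraries of pop4, against 184 and 182 CPM in its CD libraries. In pop3, Itgax had 42.6 and 24.1 CPM under HFD, against 11 and 1.1 CPM under CD. The 2 diets did not overlap for Itgax in pop3, but the difference did not pass the test (log2 difference 2.46, adjusted p = 0.473, edgeR). Of the genes that mark macrophages in general, Adgre1 (F4/80) ranged from 281 to 560 CPM and Cd68 from 225 to 764 CPM over the 8 libraries.

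The class II and monocyte-recruitment genes did not pass the test for diet. H2-Aa, the class II alpha chain, had 1160 and 1350 CPM in pop3 under HFD, against 1560 and 1560 CPM under CD, and in pop4 1270 and 1380 CPM against 1260 and 1680 CPM. Its shared diet difference had an adjusted p of 0.678, and those of H2-Ab1, the beta chain, and Cd74, the invariant chain, were 0.947 and 0.995. Ccr2, the receptor that draws monocytes into tissue, had 1040 and 1250 CPM in pop3 HFD libraries, against 911 and 1370 CPM in CD libraries. In pop4 it had 1480 and 1560 CPM under HFD, against 1270 and 1770 CPM under CD, so the diets overlapped in both populations. Pdgfc, a growth factor of the platelet-derived family, had 52.2 and 141 CPM under HFD in pop3 and 188 and 120 CPM under CD (shared adjusted p = 0.689).

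The 8 libraries held 5071290 to 8524867 counts in genes. Pop3 held 7751282 and 8524867 counts in its HFD libraries, against 5568403 and 5071290 counts in its CD libraries, which were the shallowest. Pop4 held 8239310 and 7978219 counts under HFD and 7061897 and 7808026 counts under CD. The summed level of 1463 olfactory and vomeronasal receptor genes, which macrophages are not known to use, served as a measure of background. It was 200 to 357 CPM in pop3 HFD libraries, against 426 to 687 CPM in pop3 CD libraries, and 80.7 to 83.5 CPM in pop4 HFD libraries, against 111 to 206 CPM in pop4 CD libraries. In both populations the CD libraries thus had the higher background, and pop3 CD also the lowest depth. A count of 3 was worth 0.335 to 0.551 CPM in these libraries.

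**Figure D1:**
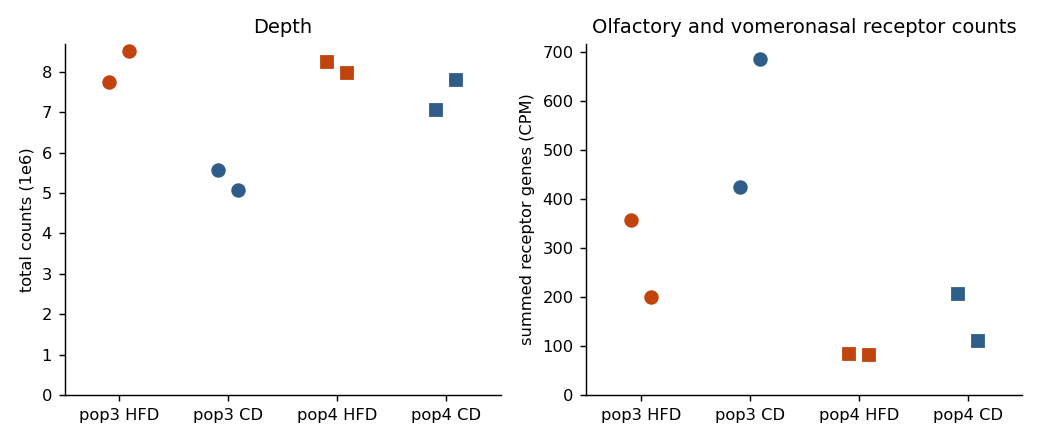
Total counts in genes, scaled as the axis label states (left), and the summed CPM of olfactory and vomeronasal receptor genes (right), for each of the 8 libraries, which are grouped by population and diet. Each point is 1 library, and the pop3 CD libraries sit lowest for depth, at 5568403 and 5071290 counts, and highest for background, at 426 to 687 CPM.

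The first question was which genes moved with diet in the same way in both Tim4- populations. A model with a diet term shared by pop3 and pop4, fitted to 13895 genes, called 0 genes at an adjusted p of 0.05 (0% of the genes tested; edgeR quasi-likelihood test, Benjamini-Hochberg adjustment). The smallest adjusted p was 0.107. At an unadjusted p below 0.05 there were 1386 genes (9.97%), of which 676 were higher under HFD (4.87%) and 710 lower (5.11%). DESeq2 on the same libraries called 307 genes, and a fit that took the mean of the 2 within-population differences called 19. In 682 genes (4.91%) both HFD libraries lay above both CD libraries in each population, and in 786 genes (5.66%) they lay below in each. A pattern of opposite order was found in 279 genes above in pop3 and below in pop4 (2.01%) and in 280 genes of the reverse order (2.02%).

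Among the genes with no overlap in either population, the lower ones with the smallest p-values were Ms4a4a, Ifi209, Ifi205, Ccl6 and Cmtm8. Ms4a4a, a membrane-spanning protein of macrophages, had 209 and 259 CPM in pop3 HFD libraries, against 399 and 492 CPM in pop3 CD libraries. In pop4 it had 35.3 and 26.0 CPM under HFD, against 115 and 76.9 CPM under CD. Its HFD libraries were the lower ones in both populations, with a shared log2 difference of -1.29 (SE 0.23, adjusted p = 0.107, edgeR). Ccl6, a chemokine of the CC family, was the most abundant of the 5. It had 1110 and 1220 CPM in pop3 HFD libraries, against 1730 and 1720 CPM in pop3 CD libraries, and 1330 and 1420 CPM in pop4 HFD libraries, against 1560 and 1940 CPM in pop4 CD libraries. The shared log2 difference of Ccl6 was -0.46 (SE 0.09, adjusted p = 0.123).

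Ifi209 and Ifi205 belong to the interferon-inducible PYHIN family, whose members on chromosome 1 are close copies of one another, so counts can be divided between them. Ifi209 had 106 and 131 CPM in pop3 under HFD, against 235 and 280 CPM under CD, and in pop4 135 and 210 CPM against 229 and 359 CPM. Its shared log2 difference was -0.94 (SE 0.18, adjusted p = 0.107). Ifi205 was all but undetected under HFD. It had 0 and 0.112 CPM in pop3 HFD libraries, against 88.6 and 21.3 CPM in pop3 CD libraries. In pop4 it had 0.122 and 0.124 CPM under HFD, against 9.44 and 0.134 CPM under CD, so that 1 CD library carried the difference there. The 2 pop3 HFD libraries held 1 count of Ifi205 and the 2 pop3 CD libraries 623, a ratio of 0.00102 (95% exact interval 2.57e-05 to 0.00569, counting error only). Cmtm8, of the MARVEL-domain family, had 0.116 and 0 CPM in pop3 HFD libraries, against 4.37 and 2.39 CPM in CD libraries. In pop4 Cmtm8 had no count under HFD, against 29.0 and 13.3 CPM under CD, which makes it at least 115-fold lower by a floor of 3 counts over the group.

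Among the higher genes with the smallest p-values were Tpr, Mrpl4, Fermt3 and Vps13b. Tpr, which forms the basket of the nuclear pore, had 614 and 501 CPM in pop3 HFD libraries, against 322 and 278 CPM in pop3 CD libraries. In pop4 it had 422 and 375 CPM under HFD, against 286 and 278 CPM under CD. The diets did not overlap in either population, and the shared log2 difference was 0.69 (SE 0.13, adjusted p = 0.107). Fermt3 (kindlin-3), which activates integrins in blood cells, had 161 and 87.2 CPM in pop3 HFD libraries, against 35.5 and 69.4 CPM in CD libraries, and 121 and 164 CPM in pop4 HFD libraries, against 65.4 and 72.8 CPM in CD libraries (log2 difference 1.14, adjusted p = 0.149). Vps13b, a lipid transfer protein of the Golgi, and Mrpl4, of the mitochondrial ribosome, had shared log2 differences of 0.82 and 2.08 with adjusted p-values of 0.149 and 0.133.

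Interferon-stimulated genes, which cells switch on after type I interferon and which act against viruses, held no member that passed the adjusted test. Of 20 listed genes, 0 had an unadjusted p below 0.05 with higher HFD values and 7 with lower ones, and the median log2 difference was -0.66, beside 676 and 710 of 13895 genes and a median of 0 over all genes. The 3 Ifit genes, whose products bind foreign RNA, were the members whose HFD libraries lay below the CD libraries in both populations. This was 3 of 20 genes, beside 786 of all 13895 genes tested (5.66%). The list was chosen with earlier results of these data known, so its shares and those of all genes are not like with like. Ifit1 had 1.04 and 24.8 CPM in pop3 HFD libraries, against 62.4 and 66.9 CPM in pop3 CD libraries. In pop4 Ifit1 had 0 and 3.23 CPM under HFD, against 18.9 and 64.3 CPM under CD (shared log2 difference -3.41, SE 0.95, adjusted p = 0.278). Ifit2 showed the same order: it had 0.925 and 1.45 CPM in pop3 HFD libraries, against 34.1 and 92.6 CPM in CD libraries, and 5.62 and 5.35 CPM in pop4 HFD libraries, against 11 and 33.9 CPM in CD libraries. In Ifit3, 3 of the 4 HFD libraries were at or near 0. It had 0.231 and 30.3 CPM in pop3 HFD libraries, against 57.0 and 32.1 CPM in CD libraries, and 0.122 and 0 CPM in pop4 HFD libraries, against 3.23 and 29.5 CPM in CD libraries.

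Rsad2 (viperin), an antiviral enzyme, had 11.7 and 5.14 CPM in pop3 HFD libraries, against 200 and 130 CPM in pop3 CD libraries. In pop4 Rsad2 had 8.55 and 0.249 CPM under HFD, against 1.16 and 76.5 CPM under CD, so the diets overlapped there (shared log2 difference -3.73, SE 0.91, adjusted p = 0.212). The list was not uniform. Irf7, a transcription factor that amplifies the interferon response, had 5.43 and 5.47 CPM in pop3 HFD libraries, against 5.94 and 4.78 CPM in CD libraries, and 0.244 and 0.249 CPM in pop4 HFD libraries, against 5.69 and 17.1 CPM in CD libraries. Mx1, a GTPase that blocks viruses, had 116 and 8.49 CPM in pop3 HFD libraries, against 14.9 and 23.9 CPM in CD libraries. The summed level of the 20 genes was 962 and 788 CPM in pop3 HFD libraries, against 1310 and 1520 CPM in CD libraries, and in pop4 439 and 514 CPM against 392 and 847 CPM, where 1 CD library was the lowest of the 4 and the other the highest.

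Promoters of some of these genes are shown because interferon acts on many genes through a short sequence element in the promoter. The sequences are from RefSeq (GRCm38.p6, the assembly of mm10), run from 250 bases before to 50 bases after the start of the gene, and are written 5′ to 3′ along the gene. Capitals mark matches on either strand to the core of the interferon-stimulated response element, which is GAAA, any 2 bases and GAAA again, and reads TTTC, any 2 bases and TTTC on the other strand.
Ifit1 (chr19:34640639-34640938, plus strand): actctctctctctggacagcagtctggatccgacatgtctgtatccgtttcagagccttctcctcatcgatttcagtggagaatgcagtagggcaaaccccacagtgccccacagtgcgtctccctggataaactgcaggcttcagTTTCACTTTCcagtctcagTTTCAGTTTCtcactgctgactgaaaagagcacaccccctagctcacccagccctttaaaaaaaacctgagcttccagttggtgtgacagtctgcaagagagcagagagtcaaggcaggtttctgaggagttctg
Ifit3 (chr19:34583279-34583578, plus strand): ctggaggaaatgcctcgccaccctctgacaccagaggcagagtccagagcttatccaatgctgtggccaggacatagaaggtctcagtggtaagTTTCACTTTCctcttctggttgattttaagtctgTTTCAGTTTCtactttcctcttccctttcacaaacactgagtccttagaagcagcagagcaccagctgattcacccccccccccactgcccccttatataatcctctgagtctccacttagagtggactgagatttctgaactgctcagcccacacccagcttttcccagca
Rsad2 (chr12:26456403-26456702, minus strand): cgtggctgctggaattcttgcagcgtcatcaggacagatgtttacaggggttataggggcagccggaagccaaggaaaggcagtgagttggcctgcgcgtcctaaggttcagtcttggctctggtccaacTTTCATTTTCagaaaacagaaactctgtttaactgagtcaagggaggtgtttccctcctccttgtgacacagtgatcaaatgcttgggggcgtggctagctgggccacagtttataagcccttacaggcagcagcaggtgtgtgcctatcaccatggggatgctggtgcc
Ifi205 (chr1:174031706-174032005, minus strand): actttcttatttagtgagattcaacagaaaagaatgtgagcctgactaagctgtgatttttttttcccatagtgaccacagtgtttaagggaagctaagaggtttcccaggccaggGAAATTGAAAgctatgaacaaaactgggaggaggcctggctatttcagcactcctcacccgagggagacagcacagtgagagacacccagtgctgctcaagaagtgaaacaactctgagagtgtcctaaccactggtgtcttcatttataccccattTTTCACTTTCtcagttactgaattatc
Ifit1 had 2 matches, which began 104 and 85 bases before the start, and Ifit3 had 2, which began 156 and 122 bases before it. Rsad2 had 1 match, 120 bases before the start, and Ifi205 had 1 match 134 bases before the start and 1 that began 23 bases into the gene. No match was found in the windows of Ifit2 and Ifi209, which are therefore not printed. The letters occurred in 1131 of all 32851 promoters in the reference (3.44%), in 338 of 10640 promoters of genes tested (3.18%) and in 7 of 13 promoters of tested list members (53.8%). The 13 are the promoters that the reference held for the 20 tested list members. That share describes a list of interferon-stimulated genes and says nothing about diet. A match describes the sequence and does not show that a factor was bound.

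Resident macrophage genes held no called member in the shared fit, but 4 of them were called in pop4 alone. Of 24 listed genes, 0 had an unadjusted p below 0.05 with higher HFD values in the shared fit and 7 with lower ones, beside 4.87% higher and 5.11% lower of all genes tested. The median log2 difference was -0.55, beside 0 for all genes. This list too was chosen with earlier results of these data known, so no excess over all genes is claimed. Selenop, a secreted selenium carrier, was the most abundant member of the 7. It had 1670 and 1760 CPM in pop3 HFD libraries, against 2660 and 2500 CPM in pop3 CD libraries. In pop4 Selenop had 651 and 477 CPM under HFD, against 642 and 1030 CPM under CD (shared log2 difference -0.58, SE 0.12, adjusted p = 0.123). Timd4 itself had 0.116 and 0.558 CPM in pop3 HFD libraries, against 0.524 and 11.6 CPM in pop3 CD libraries. In pop4 Timd4 had 0 and 0.124 CPM under HFD, against 0.129 and 10.6 CPM under CD (shared log2 difference -4.76, SE 1.02, adjusted p = 0.133). The value of Timd4 rested on the CD 8 library in each population. In bulk libraries, fewer cells of a type and less RNA per cell cannot be told apart, which holds for a few Tim4+ cells in a Tim4- sort as well. In pop1 and pop2, Timd4 ranged from 87.2 to 379 CPM under HFD and from 489 to 612 CPM under CD.

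**Figure D2:**
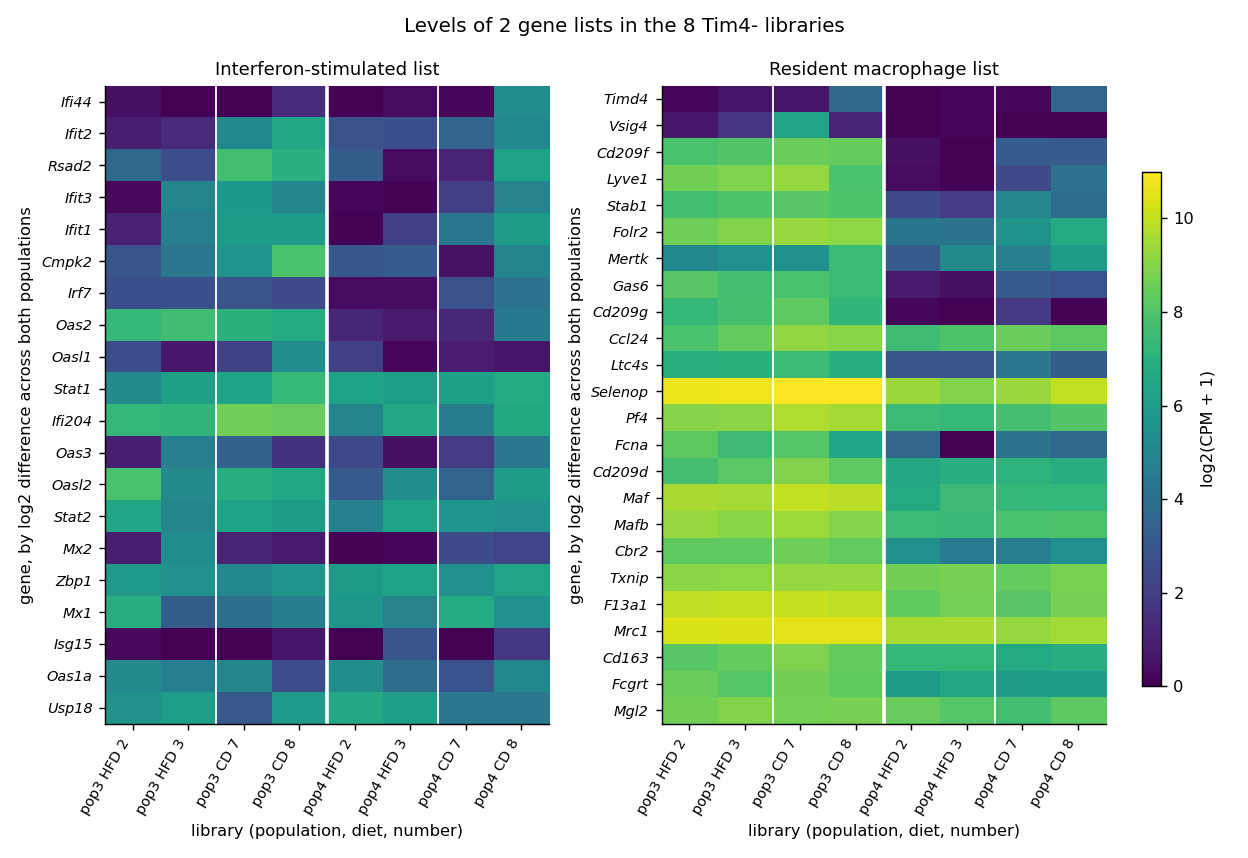
Levels of the interferon-stimulated list (left) and the resident macrophage list (right) as log2(CPM + 1), with genes as rows ordered by their shared log2 difference and the 8 libraries as columns, grouped by population and then diet. In the rows of Gas6, Cd209f, Lyve1 and Stab1 the pop4 HFD libraries are darker than the pop4 CD libraries and far darker than all pop3 libraries, while Ifit1 and Ifit2 are darker under HFD in both populations.

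Within pop4 alone, the test called 6 genes, all lower under HFD (0.0432% of 13895), and 0 genes higher (0%; 32 by DESeq2). At an unadjusted p below 0.05 there were 811 genes (5.84%), 284 of them higher (2.04%) and 527 lower (3.79%). Of the 6, 4 were on the list of resident macrophage genes: Gas6, Cd209f, Lyve1 and Stab1. The other 2 were Btla and Dpysl3. None of the 6 was above 33.2 CPM in any pop4 library.

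Gas6, the bridging ligand of TAM receptors, had 0.733 and 0.373 CPM in pop4 HFD libraries, against 8.01 and 5.92 CPM in pop4 CD libraries. It fell in pop4 by 3.61 on the log2 scale (SE 0.44, adjusted p = 0.000977). In pop3 Gas6 stood far higher and did not follow, with 284 and 218 CPM under HFD, against 228 and 180 CPM under CD. The pop4 HFD level was near that of blood monocytes, where Gas6 averaged 0.343 ± 0.159 CPM under HFD (SD, n = 3) and 0.522 ± 0.206 CPM under CD (SD, n = 6). In Tim4+ libraries Gas6 had 469 to 640 CPM under HFD and 274 to 384 CPM under CD.

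Lyve1, the hyaluronan receptor that marks vessel-associated macrophages, had 0.244 and 0 CPM in pop4 HFD libraries, against 4.91 and 16 CPM in pop4 CD libraries. These were 2 counts against 157, a ratio of 0.0119 (95% exact interval 0.00143 to 0.0437, counting error only). The fitted log2 difference of Lyve1 in pop4 was -6.21 (SE 0.89, adjusted p = 0.00304). In pop3 Lyve1 had 404 and 462 CPM under HFD, against 604 and 233 CPM under CD, with the HFD values inside the range of the CD values.

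Cd209f, a C-type lectin related to DC-SIGN, had 0.366 and 0 CPM in pop4 HFD libraries, against 8.27 and 7.67 CPM in pop4 CD libraries (log2 difference -5.30, SE 0.73, adjusted p = 0.00263). In pop3 it had 228 and 258 CPM under HFD, against 364 and 334 CPM under CD, so its HFD libraries were the lower ones there too (log2 difference -0.53, unadjusted p = 0.275). Cd209 genes are close copies of one another, so the count of a single member is uncertain. Stab1, a scavenger receptor, had 4.89 and 2.86 CPM in pop4 HFD libraries, against 33.2 and 13.3 CPM in pop4 CD libraries (log2 difference -2.58, SE 0.45, adjusted p = 0.0274). In pop3 Stab1 had 200 and 252 CPM under HFD, against 285 and 253 CPM under CD.

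Dpysl3, a protein of the collapsin response mediator family that binds the cytoskeleton, had no count in the 2 pop4 HFD libraries, against 30.6 and 10.6 CPM in pop4 CD libraries. This was at least 113-fold lower by a floor of 3 counts over the group (adjusted p = 0.0109). In pop3 it had 67.7 and 65.5 CPM under HFD, against 117 and 64.8 CPM under CD. Btla, an inhibitory receptor of lymphoid and some myeloid cells, differed from the other 5 in where it was abundant. It had 0.122 and 0 CPM in pop4 HFD libraries, against 4.27 and 31.3 CPM in pop4 CD libraries (log2 difference -7.81, SE 1.07, adjusted p = 0.00263). In pop3 Btla had 0.231 and 0.894 CPM under HFD, against 1.57 and 2.57 CPM under CD, whereas blood monocytes averaged 180 ± 22.5 CPM under HFD (SD, n = 3) and 289 ± 40.8 CPM under CD (SD, n = 6).

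**Figure D3:**
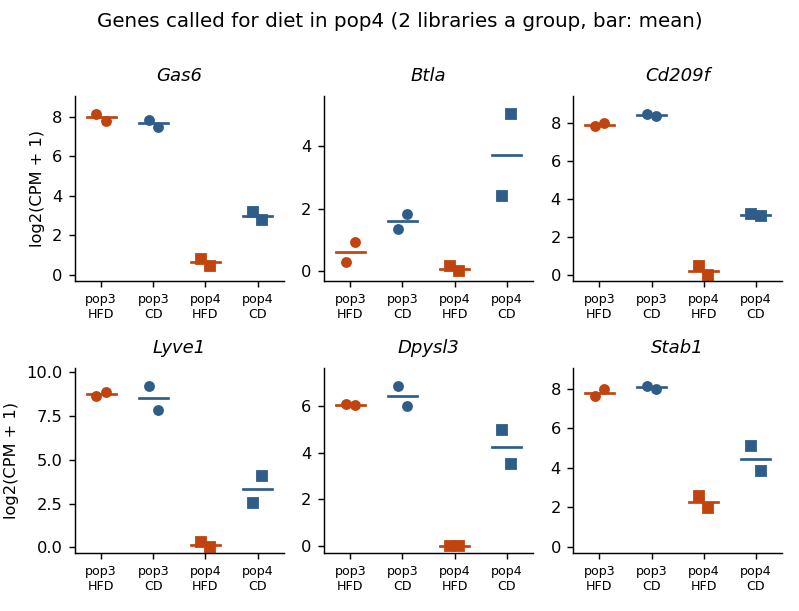
Levels of the 6 genes called for diet in pop4, as log2(CPM + 1), in each of the 8 libraries, with a bar at the mean of each group of 2. In all 6 panels both pop4 HFD libraries lie below both pop4 CD libraries, and in 5 of the panels all 4 pop3 libraries lie above all 4 pop4 libraries; Btla is the exception.

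In Tim4+ libraries of either diet Lyve1 ranged from 555 to 1050 CPM, Cd209f from 517 to 646 CPM and Stab1 from 288 to 476 CPM, so that pop3 and Tim4+ cells alike carried far more of these transcripts than pop4. Timd4 stood at 0.129 CPM in pop4 CD 7, where Gas6 had 8.01 CPM and Stab1 33.2 CPM, and at 10.6 CPM in pop4 CD 8. The part of cells from other gates in the pop4 libraries was not tested.

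Pop4 HFD had the lowest mean of all 10 population and diet groups in 4 of these 6 genes, beside 1804 of the 13895 genes tested. The 6 were called for lower values in pop4 HFD than in pop4 CD. That selection favours a low rank, so the 2 counts cannot be compared as like with like. The calls of the 6 genes were lost when pop4 HFD 3 was left out, with log2 differences of -3.23 for Gas6 and -2.26 for Stab1. They were also lost when the 8 libraries were fitted alone, where the test called 0 genes in pop4, so that they rest on the spread shared with the other 17 libraries. The summed level of the whole list was 3560 and 3610 CPM in pop4 HFD libraries, against 3550 and 4460 CPM in pop4 CD libraries, and 10300 and 10800 CPM in pop3 HFD libraries, against 14100 and 12100 CPM in pop3 CD libraries.

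Folr2, a folate receptor of resident macrophages, had 18.6 and 18 CPM in pop4 HFD libraries, against 50.9 and 106 CPM in pop4 CD libraries, without passing the test (unadjusted p = 0.0254). The resident list was not uniform in pop4. Cd163 had 159 and 160 CPM under HFD there, against 105 and 114 CPM under CD (unadjusted p = 0.603, edgeR). Mrc1 had 766 and 783 CPM under HFD, against 605 and 713 CPM under CD (unadjusted p = 0.546, edgeR). At an unadjusted p below 0.05 in pop4, 0 of the 24 listed genes were higher and 8 lower, beside 2.04% and 3.79% of all genes. Slc40a1 (ferroportin), the iron exporter, had no count in pop4 HFD libraries, against 0.517 and 29.2 CPM in pop4 CD libraries (unadjusted p = 0.000682). In pop3 Slc40a1 had 4.85 and 151 CPM under HFD, against 247 and 422 CPM under CD. Mmp9, a gelatinase, had 0.366 and 0.124 CPM in pop4 HFD libraries, against 10.2 and 4.03 CPM in pop4 CD libraries, and in pop3 31.2 and 93.3 CPM under HFD, against 250 and 140 CPM under CD (shared log2 difference -2.84, SE 0.75, adjusted p = 0.262). The diets did not overlap in either population for Slc40a1 and Mmp9.

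Genes higher under HFD in pop4 did not pass the test. Those with the smallest p-values were Cxcl3, Cfap126, Plac8, Rasgrp2, Fhl2 and Ccdc170. Cxcl3, a chemokine that draws neutrophils, had 10.3 and 15.3 CPM in pop4 HFD libraries, against no count in pop4 CD libraries, or at least 64.5-fold higher (adjusted p = 0.162). In pop3 it stood at 0 and 0.112 CPM under HFD, against 0.699 and 0.918 CPM under CD. Plac8, abundant in monocytes, had 10.9 and 71.9 CPM in pop4 HFD libraries, against 0.517 and 1.34 CPM in pop4 CD libraries (adjusted p = 0.223). Rasgrp2, an activator of the GTPase Rap1, had 16.5 and 18.4 CPM in pop4 HFD libraries, against 0.517 and 2.82 CPM in CD libraries (adjusted p = 0.223).

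Within pop3 alone, 16 genes were called, 14 higher under HFD (0.101%) and 2 lower (0.0144%). At an unadjusted p below 0.05, 958 genes were higher (6.89%) and 747 lower (5.38%). With upper-quartile scaling the called genes were 11 higher and 4 lower.

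Of the 2 lower genes, the larger fall was that of Nmrk1, a kinase that turns nicotinamide riboside into a precursor of NAD. Nmrk1 had 0.347 and 0.112 CPM in pop3 HFD libraries, against 44.9 and 43.7 CPM in pop3 CD libraries (log2 difference -7.50, SE 1.02, adjusted p = 0.00546). Pop4 did not share it, with 48.4 and 20.1 CPM under HFD, against 48.2 and 18.8 CPM under CD. In pop1 Nmrk1 had 21.1 and 16.6 CPM under HFD, against 92.9 and 133 CPM under CD, and in pop2 it stood at 1.95 and 1.36 CPM against 1.31 and 1.55 CPM. The call in pop3 held in each of 8 fits that left out 1 library, but not in the fits of the 8 libraries alone or of the 16 adipose libraries alone (adjusted p = 0.225 and 0.179). The other lower gene was Fopnl, a centrosomal protein needed for cilia, with 94.6 and 146 CPM in pop3 HFD libraries, against 329 and 346 CPM in pop3 CD libraries (log2 difference -1.49, SE 0.28, adjusted p = 0.0318). In pop4 Fopnl had 283 and 272 CPM under HFD, against 259 and 354 CPM under CD.

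In each of the 14 higher genes both pop3 CD libraries lay below both pop3 HFD libraries and below all 4 libraries of pop4. Plcg2, the phospholipase C of immune receptors, had 171 and 138 CPM in pop3 HFD libraries, against 34.6 and 16.7 CPM in pop3 CD libraries (log2 difference 2.59, SE 0.38, adjusted p = 0.00806). In pop4 Plcg2 had 146 and 160 CPM under HFD, against 139 and 119 CPM under CD. Cd244 (2B4), a receptor of the SLAM family, had 101 and 46.4 CPM in pop3 HFD libraries, against 1.05 and 2.39 CPM in pop3 CD libraries (log2 difference 5.41, SE 0.93, adjusted p = 0.0204). In pop4 the diets overlapped for Cd244, with 116 and 106 CPM under HFD, against 21.6 and 141 CPM under CD.

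Among the 14, Eif3l and Eif3f are subunits of the initiation factor eIF3, and Rpl5 is a protein of the large ribosomal subunit. Eif3l had 159 and 137 CPM in pop3 HFD libraries, against 29.0 and 29.9 CPM in pop3 CD libraries (log2 difference 2.33, SE 0.36, adjusted p = 0.0119). Eif3f had 220 and 185 CPM under HFD, against 73.4 and 67.2 CPM under CD, and Rpl5 had 231 and 103 CPM against 20.4 and 26.3 CPM (adjusted p = 0.0204 and 0.0206). Of 12 eIF3 subunits, 4 had an unadjusted p below 0.05 with higher values and 1 with lower values in pop3, with a median log2 difference of 0.45. Of all genes tested 6.89% were higher and 5.38% lower in this way, and their median was 0. The lower one was Eif3e, with 50 and 112 CPM in pop3 HFD libraries, against 210 and 181 CPM in CD libraries. Of 79 ribosomal protein genes, 5 were higher and 0 lower by that measure, a share of higher genes near that of all genes. Both lists were added once the called genes were known. Atp5d, the delta subunit of ATP synthase, had 197 and 143 CPM in pop3 HFD libraries, against 37.4 and 24.2 CPM in CD libraries (adjusted p = 0.017). Ndufa10, of respiratory complex I, had 47.5 and 125 CPM in pop3 HFD libraries, against 3.67 and 5.88 CPM in CD libraries (adjusted p = 0.0318). The list of 21 oxidative phosphorylation genes had 0 higher and 3 lower in pop3 at an unadjusted p below 0.05.

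Ctsz, a lysosomal carboxypeptidase, had 368 and 314 CPM in pop3 HFD libraries, against 122 and 132 CPM in pop3 CD libraries (log2 difference 1.42, SE 0.26, adjusted p = 0.0295). Napsa, an aspartic protease of the endosome, had 29.1 and 109 CPM in pop3 HFD libraries, against 12.8 and 5.69 CPM in pop3 CD libraries, and 193 to 265 CPM in the 4 libraries of pop4. Snrnp25, of the minor spliceosome, had 88.1 and 91.3 CPM in pop3 HFD libraries, against 0.699 and 1.1 CPM in CD libraries. Mea1, Adssl1 and 9430038I01Rik had log2 differences of 3.28, 2.13 and 4.28 and adjusted p-values of 0.0318, 0.0318 and 0.0277.

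**Figure D4:**
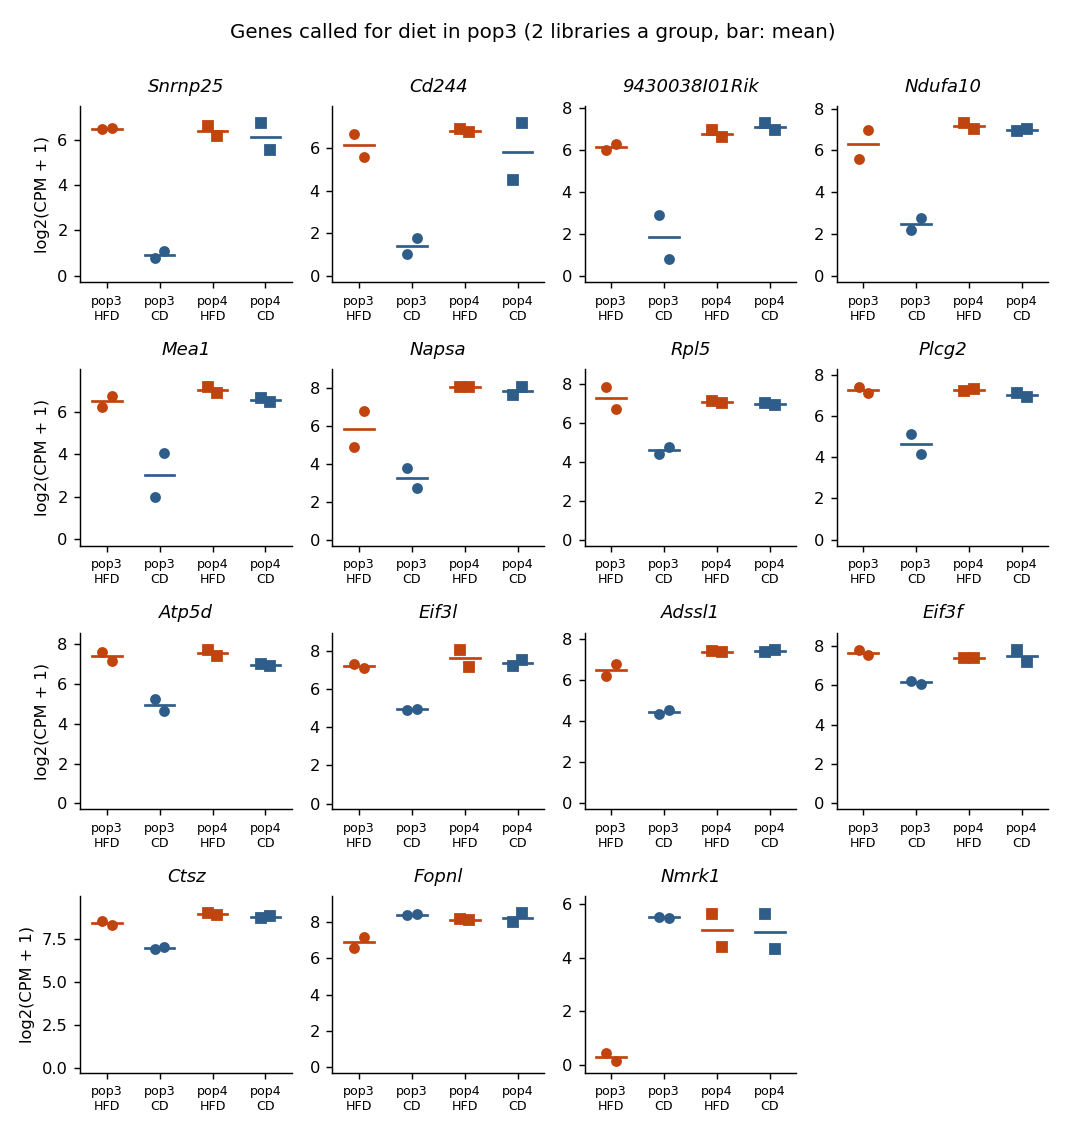
Levels of 15 of the 16 genes called for diet in pop3, as log2(CPM + 1), in each of the 8 libraries, with a bar at the mean of each group of 2. In the panels of the higher genes the pop3 CD libraries stand alone at the bottom, and in the Nmrk1 panel the pop3 HFD libraries do, at 0.347 and 0.112 CPM.

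Pop3 CD had the lowest mean of the 10 population and diet groups in 11 of the 14 higher genes, beside 1305 of the 13895 genes tested. The 14 were called for lower values in pop3 CD than in pop3 HFD. The call itself thus favours this rank, and the 2 counts cannot be compared as like with like. Among the 8 Tim4- libraries, the pop3 CD libraries had the lowest depth and the highest receptor background. Outside these 8, the pop2 HFD libraries were shallower, at 4479775 and 3752835 counts, with a background of 551 and 783 CPM. With the receptor background as a covariate, 2 of the 16 genes stayed called, and without pop3 CD 8 the test called 6 genes, of which 2 were among the 16. In the fits of the 8 libraries alone and of the 16 adipose libraries alone it called 0. The part of background and depth in these differences was not tested further.

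Other genes had the same form in pop3 without passing the adjusted test. Pparg, the lipid-sensing nuclear receptor of macrophages and adipocytes, had 222 and 62.2 CPM in pop3 HFD libraries, against 0.699 and 0.551 CPM in pop3 CD libraries (unadjusted p = 0.00121). In pop4 Pparg had 168 and 86.2 CPM under HFD, against 26.1 and 161 CPM under CD. Il1rn, the antagonist of interleukin 1, had 172 and 166 CPM in pop3 HFD libraries, against 10.5 and 1.47 CPM in pop3 CD libraries, and 673 and 493 CPM in pop4 HFD libraries, against 479 and 634 CPM in pop4 CD libraries. Mmp12, the macrophage elastase, had 10.3 and 180 CPM in pop3 HFD libraries, against 1.05 and 4.78 CPM in CD libraries. Slc2a1 (Glut1), a glucose transporter, had 1.39 and 17.0 CPM in pop3 HFD libraries, against 0.699 and 0.367 CPM in CD libraries. Its HFD libraries were the higher ones in pop4 too, at 39.1 and 29.7 CPM, against 18.2 and 19.8 CPM under CD (shared log2 difference 2.34, adjusted p = 0.386, edgeR). In the other direction, Cd86, a costimulatory ligand, had 161 and 174 CPM in pop3 HFD libraries, against 468 and 362 CPM in pop3 CD libraries (unadjusted p = 0.00129). In pop4 Cd86 overlapped between diets, at 403 and 352 CPM under HFD and 286 and 409 CPM under CD. Asah1, the acid ceramidase, had 220 and 423 CPM in pop3 HFD libraries, against 762 and 762 CPM in CD libraries (adjusted p = 0.0588).

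The next question was whether the diet difference itself differed between the populations. The test of pop3 minus pop4 called 3 genes (0.0216%), 2 with the larger value in pop3 (0.0144%) and 1 with the larger value in pop4 (0.0072%). At an unadjusted p below 0.05 there were 1006 genes (7.24%), 592 with the larger value in pop3 (4.26%) and 414 with the larger value in pop4 (2.98%). They were Gas6 (3.91, SE 0.55, adjusted p = 0.00948), Lyve1 (6.26, SE 1.06, adjusted p = 0.0432) and Nmrk1 (-7.53, SE 1.21, adjusted p = 0.0309). With the calls within each population, Gas6 and Lyve1 were changed in pop4 only and Nmrk1 in pop3 only. For the other 4 genes called in pop4 and 15 called in pop3, the difference between populations did not pass the test, so those genes are not shown to be particular to one of them. The adjusted p of the difference was 0.104 for Cd209f, 0.104 for Dpysl3, 0.254 for Stab1 and 0.205 for Plcg2.

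These 3 calls were fragile. Gas6 lost its call without pop3 CD 8, pop3 HFD 2 or pop4 HFD 3 (adjusted p = 0.0546, 0.0608 and 0.0813). Lyve1 and Nmrk1 each lost theirs in 6 of the 8 fits that left out 1 library, the highest adjusted p being 0.405 for Lyve1 without pop4 HFD 3 and 0.108 for Nmrk1 without pop4 CD 8. In the other direction, the count of called genes reached 18 without pop3 CD 7 and 11 without pop4 CD 8. Fitted to the 8 libraries alone, the test called 0 genes.

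Across 9601 genes with a mean of at least 10 CPM, the log2 differences of pop3 and pop4 had the same sign in 5531 genes (57.6%), with a Pearson r of 0.0986 and a Spearman rho of 0.151. These are across genes, which are not independent replicates. At an unadjusted p below 0.05 in both populations, 92 genes had the same sign and 37 the opposite sign. Of the 16 genes called in pop3, 12 had the same sign in pop4 and 5 had libraries that were apart in the same way there. Of the 6 genes called in pop4, 4 had the same sign in pop3 and 3 were apart in the same way. Over all 13895 genes tested, HFD libraries lay above CD libraries in both populations in 4.91% and below in both in 5.66%. These shares are not like with like, because the called genes were chosen for a diet difference within a population. The share among all genes already apart within a population was not counted, so no excess is claimed.

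**Figure D5:**
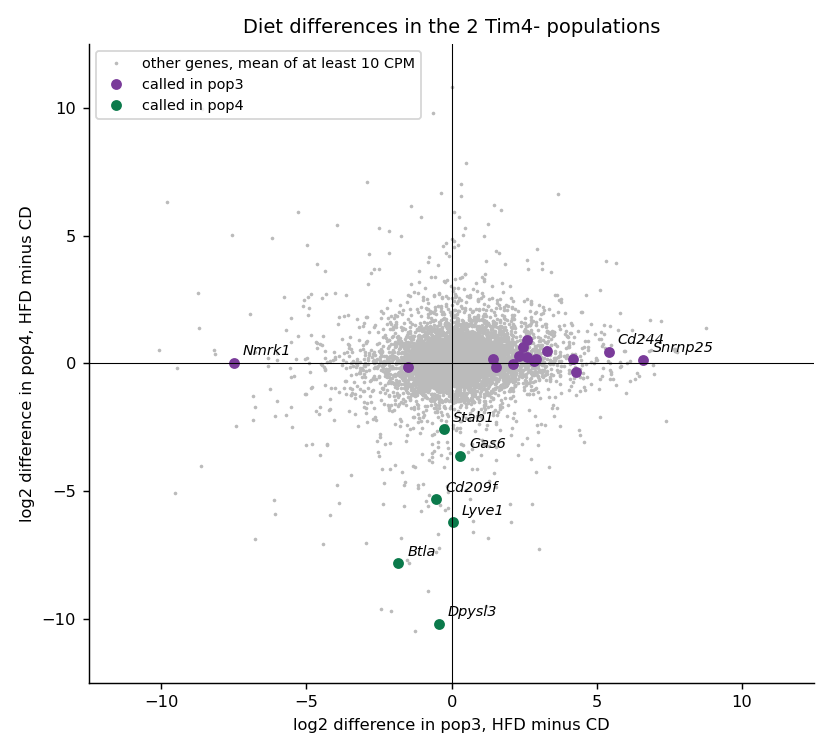
Log2 difference (HFD minus CD) in pop3 on the x axis and in pop4 on the y axis for genes with a mean of at least 10 CPM, each point 1 gene, with the genes called in pop3 in purple and those called in pop4 in green. The called genes lie near one axis or the other, with Nmrk1 at -7.50 in pop3 and near 0 in pop4, and Lyve1 at -6.21 in pop4 and 0.05 in pop3.

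The mean diet difference of the Tim4- populations was also set against that of the Tim4+ populations. The test of Tim4- minus Tim4+ called 120 genes (0.864%), 106 with the larger value in Tim4- cells (0.763%) and 14 with the smaller (0.101%). The fit of the 16 adipose libraries alone called 2. At an unadjusted p below 0.05, 1145 genes had the larger value in Tim4- cells (8.24%) and 667 the smaller (4.8%). In the 6 of smallest p among the 106, the HFD libraries of pop1, of pop2 or of both were the low ones. Dpm2, of dolichol phosphate mannose synthesis, had 55.7 and 118 CPM in pop3 HFD libraries, against 141 and 108 CPM in CD libraries, and 176 and 158 CPM in pop4 HFD libraries, against 143 and 200 CPM in CD libraries. In pop2 it had 4.09 and 2.96 CPM under HFD, against 172 and 195 CPM under CD. For Fgr, a Src family kinase of myeloid cells, the HFD libraries also lay above the CD libraries within both Tim4- populations. It had 96.5 and 102 CPM in pop3 HFD libraries, against 19.2 and 8.63 CPM in CD libraries, and 214 and 188 CPM in pop4 HFD libraries, against 113 and 156 CPM in CD libraries. In pop1 and pop2 Fgr ranged from 0.986 to 14.9 CPM under HFD and from 22.5 to 41.3 CPM under CD.

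Among the 14 genes with the smaller diet difference in Tim4- cells were Gas6, Cd209f, Cmtm8 and B4gat1. The value for Gas6 was -2.37 (SE 0.36, adjusted p = 0.00514), with higher HFD than CD levels in Tim4+ libraries and lower ones in pop4, as given above. Cmtm8 had at most 1.36 CPM in every pop1 and pop2 library, so that its difference rested on the Tim4- CD libraries. B4gat1, a glycosyltransferase, had 3 and 2.46 CPM in pop3 HFD libraries, against 14.5 and 21.5 CPM in CD libraries, and 14.2 and 9.33 CPM in pop4 HFD libraries, against 69.3 and 35.6 CPM in CD libraries. In pop2 it had 93.4 and 39.4 CPM under HFD, against 23.2 and 8.61 CPM under CD (difference -3.96, SE 0.86, adjusted p = 0.0309). The count of called genes fell to 23 without pop4 CD 7, to 44 without pop4 HFD 2 and to 56 without pop4 HFD 3. It was 2 in the fit of the 16 adipose libraries alone and 19 with the receptor background as a covariate.

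The other gene lists held no member that passed the adjusted test in the shared fit, and their counts at an unadjusted p below 0.05 are set beside 676 higher and 710 lower of 13895 genes. These lists were likewise chosen with earlier results of these data known. Complement and scavenging genes had 1 higher and 4 lower of 15, with a median log2 difference of -0.23. Fc and pattern receptors had 0 higher and 4 lower of 17, among them Fcgr3, with 466 and 458 CPM in pop3 HFD libraries, against 624 and 597 CPM in CD libraries, and 460 and 400 CPM in pop4 HFD libraries, against 440 and 629 CPM in CD libraries. Lysosomal genes had 2 higher and 6 lower of 25. Ctss, a cathepsin that also trims the invariant chain, had 740 and 680 CPM in pop3 HFD libraries, against 811 and 883 CPM in CD libraries, and 858 and 823 CPM in pop4 HFD libraries, against 974 and 1180 CPM in CD libraries (shared log2 difference -0.31, SE 0.10, adjusted p = 0.317).

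Lists tied to lipid loading showed few members in either direction. Lipid-associated macrophage genes had 1 higher and 2 lower of 24, with a median of -0.12, and genes of lipid uptake, droplets and PPAR gamma had 0 higher and 2 lower of 21. Tyrobp (DAP12), the adaptor of Trem2, had 386 and 424 CPM in pop3 HFD libraries, against 586 and 586 CPM in CD libraries, and 442 and 481 CPM in pop4 HFD libraries, against 561 and 602 CPM in CD libraries (shared log2 difference -0.43, SE 0.11, adjusted p = 0.241). Capg, an actin capping protein, had 162 and 208 CPM in pop3 HFD libraries, against 104 and 71.8 CPM in CD libraries, and 438 and 359 CPM in pop4 HFD libraries, against 245 and 321 CPM in CD libraries (0.78, SE 0.22, adjusted p = 0.278). Cd36, the fatty acid translocase, had 1060 and 1360 CPM in pop3 HFD libraries, against 2270 and 1930 CPM in CD libraries, and overlapped between diets in pop4. Msr1, a scavenger receptor for modified lipoproteins, had 309 and 265 CPM in pop3 HFD libraries, against 485 and 774 CPM in CD libraries, and overlapped between diets in pop4, with 32.6 and 40.2 CPM in HFD libraries, against 25.5 and 292 CPM in CD libraries. Cholesterol efflux and LXR target genes had 1 higher and 1 lower of 14, and sterol and fatty acid synthesis genes 0 of 27 in either direction, with a median of 0.46.

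Proliferation genes had 0 of 26 in either direction, with a median of 0.52, inflammatory cytokines 0 higher and 1 lower of 10, and chemokine ligands 0 higher and 3 lower of 21. The unfolded protein response list had 4 higher and 1 lower of 15, with a median of 0.44. Its chaperone Hsp90b1 had 699 and 592 CPM in pop3 HFD libraries, against 402 and 394 CPM in CD libraries, and 752 and 646 CPM in pop4 HFD libraries, against 604 and 617 CPM in CD libraries (shared log2 difference 0.44, SE 0.13, adjusted p = 0.278). Hspa5 (BiP) had 588 and 538 CPM in pop3 HFD libraries, against 424 and 371 CPM in CD libraries, and overlapped between diets in pop4, with 596 and 411 CPM in HFD libraries, against 413 and 363 CPM in CD libraries. The macrophage transcription factors had 2 higher and 1 lower of 20. The 2 were Spi1 (PU.1), with 129 and 113 CPM in pop3 HFD libraries, against 70.8 and 52.9 CPM in CD libraries, and 291 and 195 CPM in pop4 HFD libraries, against 135 and 169 CPM in CD libraries, and Cebpb, with 153 and 110 CPM against 63.8 and 67.4 CPM in pop3 and 213 and 192 CPM against 147 and 136 CPM in pop4. Antigen presentation genes had 0 higher and 1 lower of 15, oxidative phosphorylation 0 higher and 1 lower of 21, glycolysis and hypoxia 2 higher and 1 lower of 19, and growth factors 1 higher and 2 lower of 17.

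Markers of other cells that a Tim4- sort could hold also varied. The summed level of 10 B cell markers was 116 and 74.7 CPM in pop4 HFD libraries, against 5.43 and 12 CPM in pop4 CD libraries, and 46.1 and 56.2 CPM in pop3 HFD libraries, against 113 and 59.1 CPM in pop3 CD libraries. Of the 6 B cell markers tested, 3 had an unadjusted p below 0.05 with higher HFD values in pop4 and 0 with lower ones, beside 2.04% and 3.79% of all genes tested. Among them Ms4a1 (CD20) had 24.2 and 35.3 CPM in pop4 HFD libraries, against 0.259 and 0.134 CPM in pop4 CD libraries. The 10 T cell markers in the table summed to 119 and 214 CPM in pop4 HFD libraries, against 93.6 and 164 CPM in pop4 CD libraries. The 11 stromal progenitor markers summed to 303 and 960 CPM in pop3 HFD libraries, against 1670 and 720 CPM in pop3 CD libraries. The 10 red cell markers summed to 6.36 and 522 CPM in pop3 HFD libraries, against 33.9 and 123 CPM in pop3 CD libraries, so the diets overlapped. The 13 classical monocyte markers lay between 2760 and 3550 CPM in all 8 libraries. S100a8, a neutrophil and monocyte granule protein, had no count in the pop4 HFD libraries, against 6.59 and 11.8 CPM in pop4 CD libraries. The part of these cells in the results above was not tested.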

How the data were processed

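The deposited table held raw counts per gene for 24537 gene models, as whole numbers that the authors had not normalized, per the file header. Reads had been aligned with STAR 2.5.3a to mm10 and counted with HOMER, per the submitters' processing notes; whether the counting used strand is not given in the sources used here. The 13895 genes kept by edgeR's expression filter over the 8 Tim4- libraries were tested with edgeR 4.0.16 (quasi-likelihood test, TMM scaling) in R 4.3.3. All 25 libraries entered each fit, so that they shared 1 estimate of spread. The shared diet term had population as a block, and the differences within and between populations came from the 10 group means. Adjusted p-values are Benjamini-Hochberg values over all genes tested, called below 0.05, and the SE is the log2 difference divided by the square root of F. The procedure was tested on simulated data. CPM uses TMM-scaled library sizes. Ratios of counts have exact 95% intervals, and these and the floor of 3 counts cover counting error only.

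Nothing states that the libraries of a group came from separate mice, so p-values measure the spread between libraries, which may be technical. A gene was shared where the shared term was called, libraries were apart in the same way in both populations and the difference between populations was not called. Named genes were the lowest p-values per comparison with a mean of at least 10 CPM (6 in each direction, or 5 in the shared fit), up to 4 per list of lowest shared p, and the sort markers; gene models with provisional names or several copies (394) were left out. Other called genes and list members were named after their values were seen. Some genes are not reported here. The 39 lists held 564 genes, of which 561 were found. Members and lists were chosen with earlier results of these data known. DESeq2 1.42.0 and limma 3.58.1 served in alternatives.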

Additional observations from a re-analysis of the deposited data

Results flagged for a closer look

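The diet difference was unlike between pop3 and pop4 in 3 genes by the test of the difference itself. Gas6 (3.91 on the log2 scale, pop3 minus pop4) and Lyve1 (6.26) were lower under HFD in pop4 and not in pop3, and Nmrk1 (-7.53) was lower under HFD in pop3 and not in pop4. All 3 calls were lost in the fit of the 8 libraries alone, and each was lost in some fits that left out 1 library. Pop4 libraries held at most 8.01 CPM of Gas6 and 16 CPM of Lyve1. Nmrk1 was also lower under HFD in pop1, as given above.

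Between Tim4- and Tim4+ macrophages the test of the difference in diet effects called 120 genes. Those named, with the log2 value of Tim4- minus Tim4+, are Dpm2 (2.82, adjusted p = 0.00229), Cytip (4.5, 0.00229), Zdhhc13 (4.85, 0.00514), Chchd4 (4.72, 0.00514), Fgr (4.36, 0.00514) and Serpinb10 (5.37, 0.00627) in one direction. In the other direction they are Gas6 (-2.37, adjusted p = 0.00514), Son (-0.76, 0.024), Cd209f (-2.68, 0.0287), Cmtm8 (-9.01, 0.0287), Tnrc6b (-1.84, 0.0293) and B4gat1 (-3.96, 0.0309). Cytip, a scaffold of cell adhesion, had 208 and 185 CPM in pop3 HFD libraries, against 79.5 and 114 CPM in CD libraries, and 474 and 504 CPM in pop4 HFD libraries, against 657 and 632 CPM in CD libraries. In pop1 Cytip had 0.846 and 2.14 CPM under HFD, against 7.13 and 50.2 CPM under CD, and in pop2 2.53 and 3.41 CPM against 21.9 and 80.4 CPM. Serpinb10 had 0 and 0.329 CPM in pop1 HFD libraries, against 70.1 and 75.5 CPM in pop1 CD libraries. Son, a splicing cofactor, had 652 and 479 CPM in pop3 HFD libraries, against 742 and 804 CPM in CD libraries, while in pop1 it had 732 and 703 CPM under HFD, against 502 and 469 CPM under CD. Tnrc6b, of the microRNA silencing complex, had 252 and 242 CPM in pop1 HFD libraries, against 66.2 and 58.0 CPM in pop1 CD libraries, and 113 and 77.0 CPM in pop3 HFD libraries, against 172 and 151 CPM in pop3 CD libraries.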

How the results depend on the processing

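The counts of called genes depended on the processing. In the shared fit, where 0 genes were called, the fit of the 16 adipose libraries alone called 2, a filter at a mean of 10 CPM, chosen after seeing the data, called 4, the mean of the 2 within-population differences called 19 and DESeq2 called 307. In pop3 the 16 calls became 0 with the 8 libraries alone, 0 with the 16 adipose libraries alone, 2 with the receptor background as a covariate, 59 with the 10 CPM filter and 675 by DESeq2. In pop4 the 6 calls became 0 with the 8 libraries alone and 102 by DESeq2. The 3 calls of pop3 minus pop4 became 0 with the 8 libraries alone and 130 by DESeq2. The 120 calls of Tim4- minus Tim4+ became 73 with DESeq2 size factors, 70 with upper-quartile factors, 2 with the 16 adipose libraries alone, 19 with the background covariate and 497 by DESeq2. Upper-quartile factors moved the median of all genes in pop3 to -0.12. The cause was not tested.

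With libraries left out, calls ranged from 0 to 17 in the shared fit, 6 to 105 in pop3, 2 to 9 in pop4, 0 to 18 for pop3 minus pop4 and 23 to 137 for Tim4- minus Tim4+. The shared count was 13 without pop4 CD 7, 11 without pop4 CD 8, 6 without pop3 HFD 3, 5 without pop3 CD 7, 2 without pop4 HFD 2 and 17 without both CD 7 libraries. The pop3 count was 105 without pop3 HFD 3, 31 without pop3 CD 7, 30 without pop4 CD 7, 31 without pop4 CD 8 and 6 without pop3 CD 8.

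Libraries with the same number were not paired by the labels, and their deviations from the group means correlated at -0.0093 to 0.0776 over 12 pairs of groups. With the number as a replicate block (limma-voom, the 16 adipose libraries alone), calls were 19 in the shared fit, 8 in pop3, 6 in pop4 and 1 for Tim4- minus Tim4+. As a fixed block in the 8 libraries alone, pop3 minus pop4 had 0. The block correlation was -0.029 in the shared fit and -0.0188 with group means. Without a block, the 16 adipose libraries kept 0 of the 16 pop3 calls, and the 8 libraries 0 of the 3 for pop3 minus pop4. The part of the block itself was not tested. In pop3 and pop4 the limma-voom calls were largely other genes: of the 16 called in pop3, 1 stayed called (Nmrk1, adjusted p = 0.00904), and of the 6 called in pop4, 1 did (Dpysl3, adjusted p = 0.0117).

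Of 2815 alternatives for 144 gene values, 2446 kept their direction and their side of the threshold, 200 lost a call, 148 gained one and 21 turned sign. Those 21 were in H2-Ab1, Cd74, Ccr2 and Pdgfc, none of them called. Of the 144 values, only 16 in pop3, 6 in pop4, 3 for pop3 minus pop4 and 12 for Tim4- minus Tim4+ were called. The 200 lost calls all came from these called values. The 2446 include values that were uncalled and stayed so, and are thus no measure of how well the calls held. H2-Ab1 was 0 with DESeq2 size factors, with DESeq2 and with the 10 CPM filter, -0.02 with upper-quartile factors and -0.03 without both HFD 2 libraries. Cd74 was 0.05 without a filter, 0.03 with the covariate, 0.02 without both HFD 3 libraries, 0 without both CD 8 libraries and -0.07 to 0.04 with 1 library left out. Ccr2 was 0.06 without a filter, 0.01 with the covariate, 0.02 without both HFD 2 libraries, 0.24 without both CD 8 libraries and -0.15 to 0.09 with 1 library left out. Pdgfc was 0.22 with the covariate and 0.17 without both CD 7 libraries. Depth limits the low genes: the pop4 HFD libraries held 2 counts of Lyve1 and no count of Dpysl3.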

Other observations

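Several genes had log2 diet differences of opposite sign in the 2 Tim4- populations without passing the test of the difference. Txnl4b, of the spliceosome, had 26.0 and 2.35 CPM in pop3 HFD libraries, against 0.350 and 0.918 CPM in pop3 CD libraries, and 3.66 and 3.11 CPM in pop4 HFD libraries, against 30.2 and 17.3 CPM in pop4 CD libraries (difference 7.25 on the log2 scale, adjusted p = 0.205, edgeR). Socs2, a suppressor of cytokine signalling, had 16.2 and 18.1 CPM in pop3 HFD libraries, against 5.07 and 0.551 CPM in CD libraries, and 10.3 and 1.87 CPM in pop4 HFD libraries, against 49.4 and 42.2 CPM in CD libraries. Ly6c2, the Ly6C antigen of classical monocytes, had 0.347 and 1.12 CPM in pop3 HFD libraries, against 21.5 and 2.02 CPM in CD libraries, and 0.611 and 12.6 CPM in pop4 HFD libraries, against 0.388 and 1.34 CPM in CD libraries (difference -6.88, adjusted p = 0.179). The diets overlapped for Ly6c2 in pop4, where the HFD 3 library carried the difference. Dfna5 (gasdermin E), a pore-forming protein of cell death, had 17.0 and 30.7 CPM in pop4 HFD libraries, against 0.259 and 0.672 CPM in pop4 CD libraries, and 0.347 and 0.447 CPM in pop3 HFD libraries, against 4.19 and 1.47 CPM in pop3 CD libraries (difference -8.41, adjusted p = 0.251).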
